A study of Homo sapiens with 12 samples.

Results

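The 46 genes described here act at the G1/S transition or in copying DNA, and their transcripts were followed after knockdown of either of the RNA-binding proteins LARP4A and LARP4B. They were taken by name from a list of replication and G1/S genes, with no threshold on their values. The list was chosen with earlier results of these data known, so it is not independent of them. The members are 46 of the 26468 gene symbols with a single locus in the tables. All 46 were found, and all 46 were abundant enough to be tested. The cells were PC3, a human prostate carcinoma line, and MG63, a human osteosarcoma line. Both were transfected with Lipofectamine RNAiMAX, a lipid reagent, carrying siRNA at 10 nM, and RNA was taken 72 h later. Each line received siControl, a control siRNA, siLARP4A, which targets LARP4A (listed in the tables as LARP4), or siLARP4B, which targets LARP4B. This gave 6 groups of 2 libraries of poly(A) RNA, 12 libraries in all. Nothing in the labels says that the 2 libraries of a group came from separate cultures, so p-values measure only the spread between these libraries, which may be technical. The labels do not say how many siRNA sequences were used per target.

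A cell licenses its replication origins in G1, when ORC, CDC6 and CDT1 load rings of MCM2 to MCM7 onto DNA. At the G1/S transition cyclin E with CDK2, and the kinase CDC7 with DBF4, turn the loaded rings into active helicases by adding CDC45 and the GINS complex. DNA polymerases, the sliding clamp PCNA and its loader RFC then copy both strands, while thymidylate synthase, thymidine kinase and ribonucleotide reductase supply deoxynucleotides. Most of these genes are transcribed in a wave at the end of G1 under E2F transcription factors, so their transcripts are commonly read as a sign of how many cells are entering or crossing S phase. In RNA from a whole culture, fewer cells in S phase and less of each transcript per cell cannot be told apart.

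Library totals ran from 16950119 to 24864977 fragments, and a member had between 36 and 26046 fragments in a library. The targeted genes were lower in the libraries labelled for them. LARP4 stood at 18.95 and 19.4 FPKM (fragments scaled to transcript length and to the library total) with siControl and 2.36 and 2.47 with siLARP4A in PC3, and at 8.18 and 8.503 and 2.11 and 2.19 in MG63. LARP4B stood at 7.02 and 7.18 with siControl and 1.35 and 1.26 with siLARP4B in PC3, and at 6.64 and 6.77 and 1.89 and 2.1999 in MG63. All 6 epithelial markers checked, keratins and EPCAM among them, were higher in PC3 than in MG63, and collagens and SPARC were higher in MG63. The prostate luminal gene KLK3 was near 0 in PC3 (at most 0.0442 FPKM in a library), and the bone genes RUNX2 and ALPL were low in MG63 (at most 0.654 and 1.08 FPKM). The 2 replicates of PC3 siLARP4A and of MG63 siLARP4B differed most from each other, at 6.28 and 5.02 times the variance expected from counting alone, against 1.63 to 2.57 for the other 4 groups. Whether counting used strand is not given in the sources used here. Exons of other genes lie over 20.2% to 46.6% of the GENCODE exons of TYMS, CCNE2, POLA2, MCM2, GINS4, PRIM1 and RRM2. The gene with the largest overlap is on the same strand for POLA2, PRIM1 and RRM2, and fragments there cannot be told apart. For TYMS, CCNE2, MCM2 and GINS4 it is on the opposite strand, where fragments can be told apart only if counting used strand. The share of the counted transcript models that is covered was not measured.

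The promoters of the members carry the sequence that E2F factors are known to bind more often than other promoters. RefSeq (GRCh38.p14) gave a 300-base promoter, from 250 bases before to 50 after the transcription start, for 40 of the 46 members; MCM4, MCM5, GINS4, POLD3, CCNE2 and E2F8 had none there. On either strand, 21 of the 40 (52.5%) held at least 1 of the 4 words TTTCCCGC, TTTGGCGC, TTTCGCGC and TTTGCCGC, with overlapping words each counted, against 5.20% of the 11848 promoters of tested genes and 3.34% of the 27195 promoters in the table. CCAAT, the word bound by NF-Y, was in 52.5% of the members' promoters, against 36.1% of those of tested genes. The promoters printed here are those of the 5 members with the largest falls after siLARP4B in PC3 among those that hold such a word within 150 bases before to 30 after the start. This 180-base stretch is printed 5′ to 3′ along the gene, with the word in capitals.
TYMS (thymidylate synthase; chr18:657503-657682, plus strand): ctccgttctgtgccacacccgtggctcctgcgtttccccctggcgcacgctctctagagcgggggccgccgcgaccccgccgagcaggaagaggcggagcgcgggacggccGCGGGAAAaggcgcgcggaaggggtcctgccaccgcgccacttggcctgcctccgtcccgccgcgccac
RFC3 (clamp loader subunit; chr13:33817999-33818178, plus strand): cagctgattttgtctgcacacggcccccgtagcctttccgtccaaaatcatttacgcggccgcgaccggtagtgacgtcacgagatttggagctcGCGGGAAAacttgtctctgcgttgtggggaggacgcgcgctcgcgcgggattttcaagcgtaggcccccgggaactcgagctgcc
LIG1 (DNA ligase; chr19:48170315-48170494, minus strand): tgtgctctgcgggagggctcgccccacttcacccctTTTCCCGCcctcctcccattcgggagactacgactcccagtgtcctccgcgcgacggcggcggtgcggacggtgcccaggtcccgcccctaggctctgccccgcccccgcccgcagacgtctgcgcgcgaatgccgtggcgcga
E2F2 (transcription factor; chr1:23531204-23531383, minus strand): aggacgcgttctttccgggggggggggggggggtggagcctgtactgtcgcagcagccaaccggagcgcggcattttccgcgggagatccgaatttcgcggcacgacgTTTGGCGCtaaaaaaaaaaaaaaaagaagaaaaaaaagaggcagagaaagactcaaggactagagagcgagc
CLSPN (Claspin, a checkpoint adaptor; chr1:35769949-35770128, minus strand): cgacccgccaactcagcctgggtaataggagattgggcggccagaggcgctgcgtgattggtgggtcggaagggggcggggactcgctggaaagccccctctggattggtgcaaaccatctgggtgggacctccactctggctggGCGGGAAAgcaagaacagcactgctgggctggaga
The word in TYMS, RFC3, LIG1 and CLSPN is TTTCCCGC, read on the opposite strand as GCGGGAAA in TYMS, RFC3 and CLSPN, and that in E2F2 is TTTGGCGC. A match describes letters in a window and says nothing of binding in these cells, which was not measured. The median log2 fold changes against siControl (log2 of the siRNA level over the siControl level) of the members with a word and of those without one were, in PC3, -0.23 and -0.14 with siLARP4A, then -1.18 and -1.02 with siLARP4B, and in MG63 -0.36 and -0.32 with siLARP4A, then -0.23 and -0.19 with siLARP4B. Of the 21 with a word and the 19 without one, 16 and 8 fell by the edgeR test after siLARP4A in PC3, 21 and 18 after siLARP4B in PC3, 17 and 15 after siLARP4A in MG63, and 14 and 8 after siLARP4B in MG63. Of all genes tested, 16.9% fell after siLARP4A and 20.9% after siLARP4B in PC3, and 13.5% and 16.9% in MG63. The share that fell among all tested genes with a word was not counted. Whether the members with and without a word differed was not tested.

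After siLARP4B in PC3, 45 of the 46 members fell (edgeR quasi-likelihood test, adjusted p under 0.05), 29 of them at least 2-fold, and 0 rose. At an unadjusted edgeR p under 0.05 the number that rose was 0 as well, and it was 0 with DESeq2 and 0 with limma. Among all 15685 genes tested in that comparison, 20.9% fell and 24.8% rose, and 430 fell and 532 rose at least 2-fold. The median log2 fold change of the members was -1.08, against 0.04 over all genes tested. In the other 3 comparisons with siControl the members also fell more often than other genes, but by less. After siLARP4A in PC3, 28 fell and 3 rose (median -0.22), where 16.9% of all genes fell and 19.5% rose. In MG63, siLARP4A lowered 37 members and raised 0 (median -0.35), where 13.5% of all genes fell and 13.3% rose. At an unadjusted edgeR p under 0.05 only E2F1 rose (1 member), and 0 rose with DESeq2. Under 3 other alternatives E2F1 was called higher. After siLARP4B in MG63, 26 fell and 2 rose (median -0.22), where 16.9% of all genes fell and 18.0% rose. The medians over all genes tested were 0.03, -0.00061 and -0.0027 in these 3 comparisons. The 2 comparisons within a line share their siControl libraries.

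**Figure D1:**
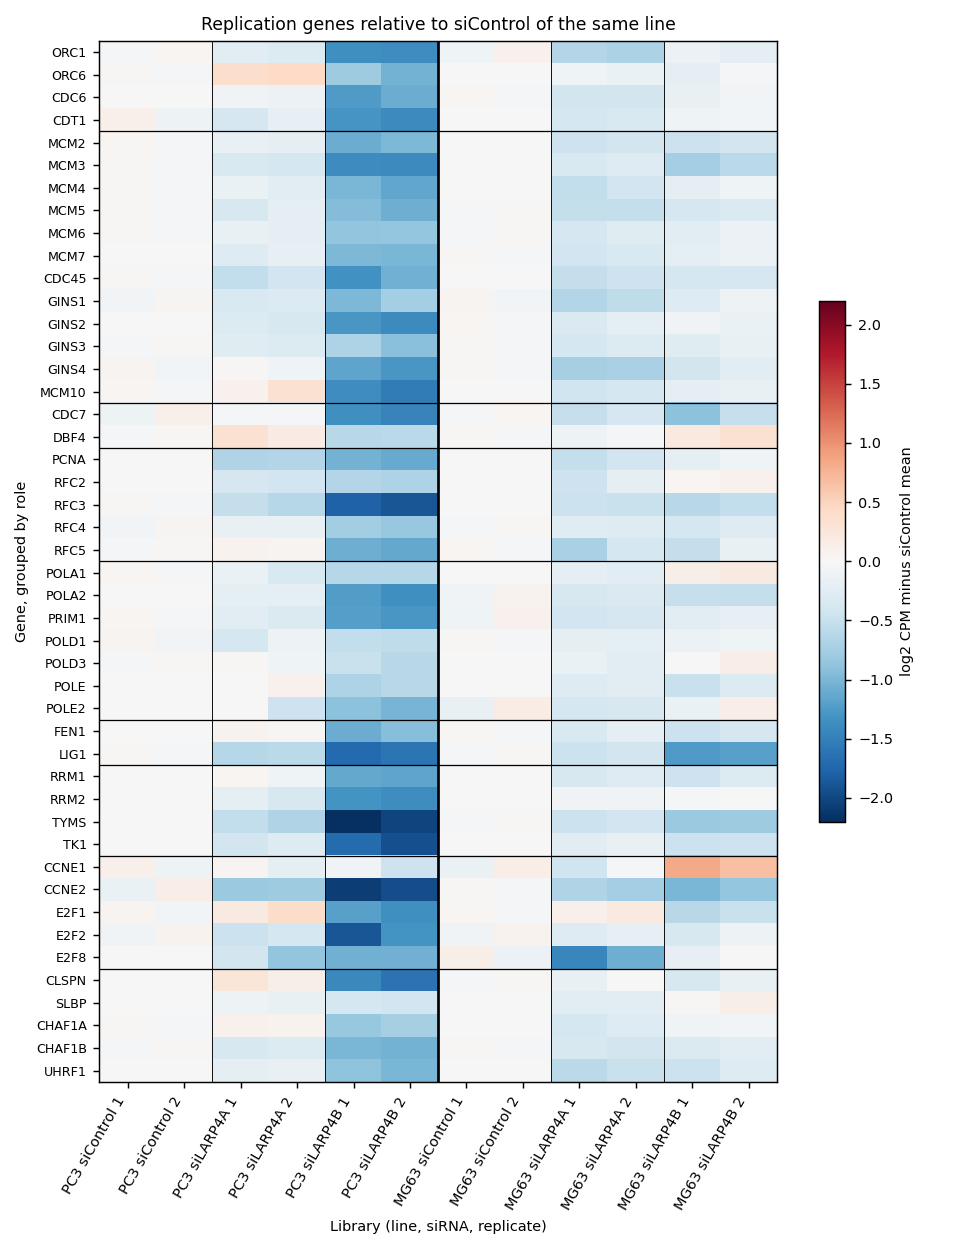
Each row is 1 of the 46 members, grouped by role, and each column 1 of the 12 libraries; colour gives log2 CPM (counts scaled to the library total) minus the mean of the siControl libraries of the same line. The 2 PC3 siLARP4B columns are blue for 46 of 46 members, with medians of -1.08 and -1.09, while the other siRNA columns are paler, with medians from -0.39 to -0.17.

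Single libraries tell the same difference. In each of the 2 PC3 siLARP4B libraries, 46 members lay below the siControl mean. The PC3 siLARP4A libraries had 32 and 37 below it, the MG63 siLARP4A libraries 45 and 44, and the MG63 siLARP4B libraries 41 and 38. Such counts per library were not made for all genes. Of the 15685 genes tested, the log2 fold change was below 0 for 7157 (siLARP4A) and 6869 (siLARP4B) in PC3. In MG63 it was below 0 for 7860 and 7890. The 2 MG63 siLARP4B libraries stood apart from each other, with member medians of -0.28 and -0.17. All 45 calls in PC3 after siLARP4B remained when any 1 of the 4 libraries compared was left out. Of the calls of lower level, 14 of 28 remained for PC3 siLARP4A, 28 of 37 for MG63 siLARP4A and 19 of 26 for MG63 siLARP4B when any 1 library of the comparison was left out. The calls lost had an edgeR adjusted p of 0.0521 to 0.193, 0.0541 to 0.299 and 0.0883 to 0.278 without the library in question. In PC3 siLARP4A they were those of ORC1, CDT1, MCM2, MCM4, MCM6, GINS1, GINS3, POLA1, POLA2, PRIM1, POLD1, E2F2, E2F8 and UHRF1; with all libraries E2F8 had fallen by 34.1% and E2F2 by 26.3%. In MG63 siLARP4A they were GINS2, CDC7, RFC2, RFC4, POLA1, PRIM1, POLD1, FEN1 and TK1, and in MG63 siLARP4B they were MCM4, MCM6, MCM7, GINS3, PCNA, RFC5 and CLSPN.

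**Figure D2:**
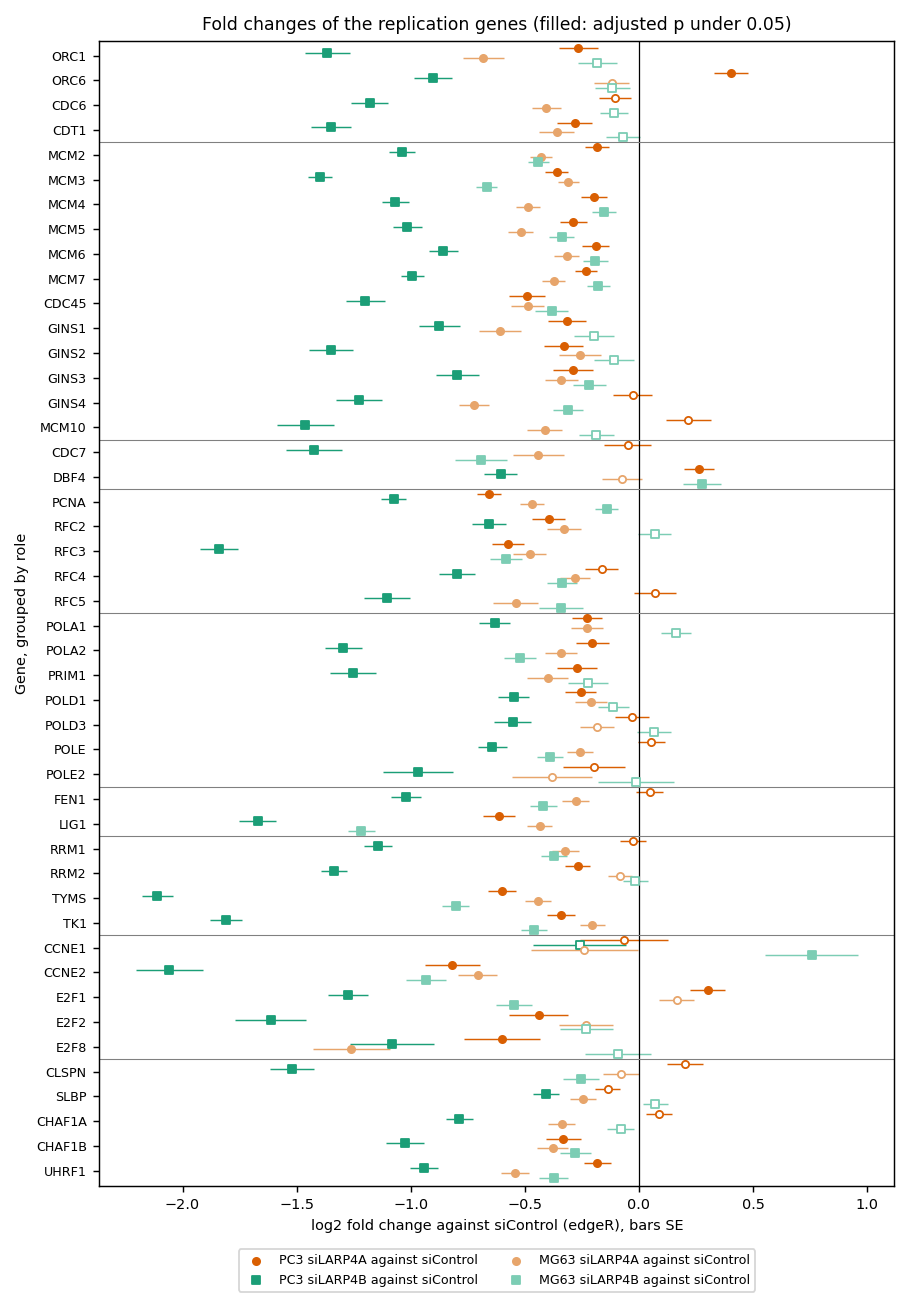
Log2 fold change against siControl for each member (rows, by role) in the 4 comparisons; bars are standard errors and filled symbols passed an edgeR adjusted p of 0.05. The PC3 siLARP4B squares lie farthest left for 45 of the 46 members, and E2F8 is the exception.

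The origin licensing genes fell after siLARP4B in PC3 (4 of 4) and mostly after siLARP4A in MG63 (3 of 4), and 0 of 4 passed the edgeR test after siLARP4B in MG63 (1, ORC1, at an unadjusted p under 0.05, and 0 with DESeq2). ORC1 encodes the largest subunit of the origin recognition complex and is the one made anew in each G1. In PC3 it was at 7.99 and 8.56 with siControl, 6.97 and 6.605 with siLARP4A and 3.24 and 3.19 with siLARP4B FPKM, and in MG63 at 8.16 and 9.43 with siControl, 5.57 and 5.402 with siLARP4A and 7.91 and 7.41 with siLARP4B. The low libraries were thus the siLARP4B pair in PC3 and the siLARP4A pair in MG63, each below the other 4 of its line. The log2 fold changes of ORC1 were -1.37 (SE 0.098, edgeR adjusted p = 2e-10) and -0.68 (SE 0.089, edgeR adjusted p = 4.7e-06). CDT1, which carries the MCM rings to ORC, was at 17.01 and 14.7 with siControl, 12.1 and 13.7 with siLARP4A and 6.46 and 5.98 with siLARP4B in PC3 and 20.5 and 20.1 with siControl, 15.6 and 16.01 with siLARP4A and 18.9 and 19.3 with siLARP4B in MG63. Its PC3 siLARP4B libraries lay below all others of that line, a log2 fold change of -1.35 (SE 0.089, edgeR adjusted p = 5e-11). CDC6, the ATPase that works with CDT1, fell by 55.9% in PC3 after siLARP4B and by 24.5% in MG63 after siLARP4A. ORC6, the smallest ORC subunit, went in opposite directions in PC3, where it was at 24.3 and 23.96 with siControl, 30.99 and 32.2 with siLARP4A and 14.1 and 11.7 with siLARP4B. The siLARP4A pair lay above the siControl pair and the siLARP4B pair below it, with log2 fold changes of 0.40 (SE 0.074, edgeR adjusted p = 0.00017) and -0.90 (SE 0.084, edgeR adjusted p = 1.2e-08). In MG63, ORC6 was at 26.02 and 26.3 with siControl, 24.5 and 23.7 with siLARP4A and 22.5 and 25.1 with siLARP4B, and neither siRNA passed the test.

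The replicative helicase is the complex of MCM2 to MCM7, CDC45 and the 4 GINS proteins, and MCM10 helps to switch it on. All 12 of these genes fell after siLARP4B in PC3, with log2 fold changes from -1.46 (MCM10) to -0.80 (GINS3), and 12 of 12 fell after siLARP4A in MG63, from -0.72 (GINS4) to -0.26 (GINS2). After siLARP4A in PC3 10 of 12 fell, and after siLARP4B in MG63 9 of 12. MCM3, a ring subunit, was at 52.2 and 50.9 with siControl, 40.3 and 39.04 with siLARP4A and 19.7 and 19.5 with siLARP4B FPKM in PC3. In MG63 it was far more abundant, at 419 and 424 with siControl, 335 and 345 with siLARP4A and 249 and 275 with siLARP4B. In both lines the order of the groups was siControl, siLARP4A, siLARP4B from high to low, with no overlap between libraries. Its log2 fold changes in PC3 were -0.36 (SE 0.050, edgeR adjusted p = 6.6e-06) for siLARP4A and -1.40 (SE 0.053, edgeR adjusted p = 8.5e-15) for siLARP4B, and in MG63 -0.31 (SE 0.046, edgeR adjusted p = 2.3e-05) and -0.67 (SE 0.046, edgeR adjusted p = 3.6e-10). The other 5 ring genes fell by 44.9% (MCM6) to 52.3% (MCM4) after siLARP4B in PC3.

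Among the helicase partners, MCM10 was at 2.91 and 2.81 with siControl, 3.02 and 3.59 with siLARP4A and 1.101 and 0.972 with siLARP4B FPKM in PC3 and 9.31 and 9.19 with siControl, 6.802 and 7.09 with siLARP4A and 7.95 and 8.11 with siLARP4B in MG63. Its PC3 siLARP4A libraries lay above siControl without passing the test (0.22 (SE 0.098, edgeR adjusted p = 0.092)), and its siLARP4B libraries lay below both other groups (-1.46 (SE 0.12, edgeR adjusted p = 3.2e-09)). Leaving out PC3 siLARP4A replicate 1 took that siLARP4A value to 0.34 at an adjusted p of 0.0187. CDC45, which joins the ring to the GINS complex, fell in all 4 comparisons, by 28.8% and 56.4% in PC3 and by 28.7% and 23.3% in MG63 for siLARP4A and siLARP4B. GINS4 was the helicase gene with the lowest fold change after siLARP4A in MG63, with 24.8 and 23.7 with siControl, 14.6 and 14.8 with siLARP4A and 18.1 and 20.4 with siLARP4B FPKM there and 5.96 and 5.602 with siControl, 5.78 and 5.37 with siLARP4A and 2.59 and 2.35 with siLARP4B in PC3. Its low pair was siLARP4A in MG63 (-0.72 (SE 0.067, edgeR adjusted p = 4.6e-08)) and siLARP4B in PC3 (-1.23 (SE 0.10, edgeR adjusted p = 1.8e-09)). GINS4 was chosen for description after its values were seen.

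The kinase that fires licensed origins consists of CDC7 and its activating subunit DBF4, and the 2 genes differed. CDC7 was at 6.23 and 7.45 with siControl, 6.49 and 6.58 with siLARP4A and 2.66 and 2.44 with siLARP4B FPKM in PC3 and 6.79 and 7.17 with siControl, 4.88 and 5.39 with siLARP4A and 3.698 and 4.85 with siLARP4B in MG63. The siLARP4B libraries were the lowest pair in each line, with log2 fold changes of -1.42 (SE 0.12, edgeR adjusted p = 4.6e-09) and -0.69 (SE 0.11, edgeR adjusted p = 5.3e-05). DBF4 was at 13.5 and 14.1 with siControl, 17.1 and 15.6 with siLARP4A and 9.03 and 9.15 with siLARP4B in PC3 and 5.44 and 5.29 with siControl, 4.96 and 5.22 with siLARP4A and 6.17 and 6.67 with siLARP4B in MG63. It was lowest with siLARP4B in PC3 (-0.61 (SE 0.071, edgeR adjusted p = 4.1e-07)) but highest with siLARP4B in MG63 (0.28 (SE 0.083, edgeR adjusted p = 0.012)), and highest with siLARP4A in PC3 (0.26 (SE 0.066, edgeR adjusted p = 0.0032)). Neither rise held without every library: the PC3 rise was 0.19 without siLARP4A replicate 1 (adjusted p = 0.0566), and the MG63 rise was 0.25 without siControl replicate 2 (adjusted p = 0.0883) and 0.22 without siLARP4B replicate 2 (adjusted p = 0.108).

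PCNA, the ring-shaped clamp that holds polymerases on DNA, was among the most abundant members and responded to both siRNAs in PC3. It was at 139 and 143 with siControl, 87.6 and 89.2 with siLARP4A and 68.7 and 65.4 with siLARP4B FPKM in PC3 and 130.2 and 133 with siControl, 91.99 and 98.5 with siLARP4A and 114 and 122 with siLARP4B in MG63. In PC3 the 3 groups did not overlap, and in MG63 the siLARP4A pair was the lowest. The log2 fold changes after siLARP4A were -0.66 (SE 0.052, edgeR adjusted p = 2.4e-09) in PC3 and -0.47 (SE 0.053, edgeR adjusted p = 6.8e-07) in MG63, and after siLARP4B in PC3 -1.08 (SE 0.054, edgeR adjusted p = 6.1e-13). RFC3, a subunit of the loader that opens PCNA, was at 17.4 and 17.2 with siControl, 11.9 and 11.04 with siLARP4A and 5.02 and 4.66 with siLARP4B in PC3 and 18.3 and 17.97 with siControl, 13.03 and 12.96 with siLARP4A and 11.7 and 12.2 with siLARP4B in MG63. Every siRNA library lay below the siControl libraries of its line, and RFC3 fell in all 4 comparisons: -0.57 and -1.84 (SE 0.083, edgeR adjusted p = 1.2e-13) in PC3, and -0.48 and -0.58 (SE 0.071, edgeR adjusted p = 1.5e-06) in MG63. RFC5, another loader subunit, was at 18.3 and 19.5 with siControl, 19.7 and 19.5 with siLARP4A and 8.93 and 8.69 with siLARP4B in PC3 and 16.5 and 15.6 with siControl, 9.82 and 12.2 with siLARP4A and 10.99 and 14.1 with siLARP4B in MG63. In PC3 its siLARP4A libraries lay close to siControl (0.07 (SE 0.091, edgeR adjusted p = 0.59)) while the siLARP4B pair was far lower (-1.10 (SE 0.10, edgeR adjusted p = 1e-08)), and in MG63 all 4 siRNA libraries lay below siControl. RFC2 and RFC4 fell after siLARP4B in PC3 by 36.6% and 42.5%.

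The polymerase genes fell less than the other roles after siLARP4B in PC3, with a median log2 fold change of -0.64 over 7 genes, all 7 past the threshold. POLA2 encodes the B subunit of DNA polymerase alpha and PRIM1 the catalytic primase subunit, which together start each new strand. POLA2 was at 9.77 and 10.1 with siControl, 8.45 and 8.58 with siLARP4A and 4.21 and 3.88 with siLARP4B FPKM in PC3 and 11.7 and 12.9 with siControl, 9.67 and 9.803 with siLARP4A and 8.58 and 8.39 with siLARP4B in MG63. The siLARP4B pair was the lowest in both lines, with log2 fold changes of -1.30 (SE 0.081, edgeR adjusted p = 2.4e-11) and -0.52 (SE 0.071, edgeR adjusted p = 5.7e-06). PRIM1 was at 16.2 and 15.5 with siControl, 13.3 and 12.6 with siLARP4A and 6.86 and 6.47 with siLARP4B in PC3 and 15.9 and 18.3 with siControl, 12.8 and 13.2 with siLARP4A and 14.2 and 14.8 with siLARP4B in MG63. In PC3 the siLARP4B pair was the lowest (-1.25 (SE 0.10, edgeR adjusted p = 1.2e-09)), and in MG63 the siLARP4A pair was. The remaining 5 genes, POLA1, POLD1, POLD3, POLE and POLE2, which encode subunits of polymerases alpha, delta and epsilon, had log2 fold changes from -0.97 to -0.55 after siLARP4B in PC3. In MG63, 5 of the 7 polymerase and primase genes fell after siLARP4A and 2 of 7 (POLA2 and POLE) after siLARP4B.

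LIG1, the ligase that seals Okazaki fragments, was the member that fell most after siLARP4B in MG63. It was at 8.04 and 7.797 with siControl, 5.06 and 5.17 with siLARP4A and 2.402 and 2.59 with siLARP4B FPKM in PC3 and 26.5 and 27.5 with siControl, 19.5 and 20.4 with siLARP4A and 11.3 and 11.6 with siLARP4B in MG63. In both lines the libraries fell into 3 separate levels, siControl above siLARP4A above siLARP4B. The log2 fold changes were -0.61 (SE 0.071, edgeR adjusted p = 6.2e-07) and -1.67 (SE 0.083, edgeR adjusted p = 4.9e-13) in PC3 for siLARP4A and siLARP4B, and -0.44 (SE 0.057, edgeR adjusted p = 4.6e-06) and -1.22 (SE 0.059, edgeR adjusted p = 1.3e-12) in MG63. FEN1, the nuclease that trims the flaps before LIG1 acts, was at 42.9 and 43.5 with siControl, 44.8 and 43.4 with siLARP4A and 20.3 and 22.5 with siLARP4B in PC3 and 61.2 and 59.6 with siControl, 47.8 and 51.9 with siLARP4A and 43.3 and 45.97 with siLARP4B in MG63. FEN1 did not pass the test after siLARP4A in PC3 (0.05 (SE 0.060, edgeR adjusted p = 0.59)), and it fell after siLARP4B in both lines, by 50.8% and 25.2%.

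The deoxynucleotide supply genes had the lowest median of the roles after siLARP4B in PC3, -1.57, and 4 of 4 fell at least 2-fold. Over all 15685 genes tested, 430 fell and 532 rose at least 2-fold there. TYMS makes dTMP and is the target of fluoropyrimidine drugs. It was at 58.9 and 60.6 with siControl, 40.5 and 37.2 with siLARP4A and 13.05 and 14.7 with siLARP4B FPKM in PC3 and 82.9 and 86.2 with siControl, 61.2 and 63.02 with siLARP4A and 47.3 and 48.4 with siLARP4B in MG63. The 3 groups were separate in each line, in the order siControl, siLARP4A, siLARP4B from high to low. TYMS changed by -0.60 (SE 0.060, edgeR adjusted p = 7.9e-08) and -2.11 (SE 0.069, edgeR adjusted p = 1.3e-15) on the log2 scale in PC3, a fall of 76.8% for siLARP4B, and by -0.44 (SE 0.058, edgeR adjusted p = 4.5e-06) and -0.80 (SE 0.059, edgeR adjusted p = 7.8e-10) in MG63. Exons of ENOSF1, a neighbour on the opposite strand, lie over 39.1% of the GENCODE exons of TYMS. TK1, the thymidine kinase of the salvage pathway, was at 53.2 and 54.6 with siControl, 40.4 and 43.7 with siLARP4A and 16.7 and 14.1 with siLARP4B in PC3 and 115 and 114 with siControl, 97.4 and 102 with siLARP4A and 82.1 and 82.8 with siLARP4B in MG63. It showed the same order of groups without overlap, and no other gene's exons lie over it. Its log2 fold changes for siLARP4B were -1.81 (SE 0.069, edgeR adjusted p = 8.5e-15) in PC3 and -0.46 (SE 0.056, edgeR adjusted p = 1.6e-06) in MG63. The large and small subunits of ribonucleotide reductase, RRM1 and RRM2, fell by 54.7% and 60.4% after siLARP4B in PC3. RRM2 did not pass the test in MG63 after either siRNA (-0.08 and -0.02), whereas RRM1 fell there by 20.1% and 22.8%.

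**Figure D3:**
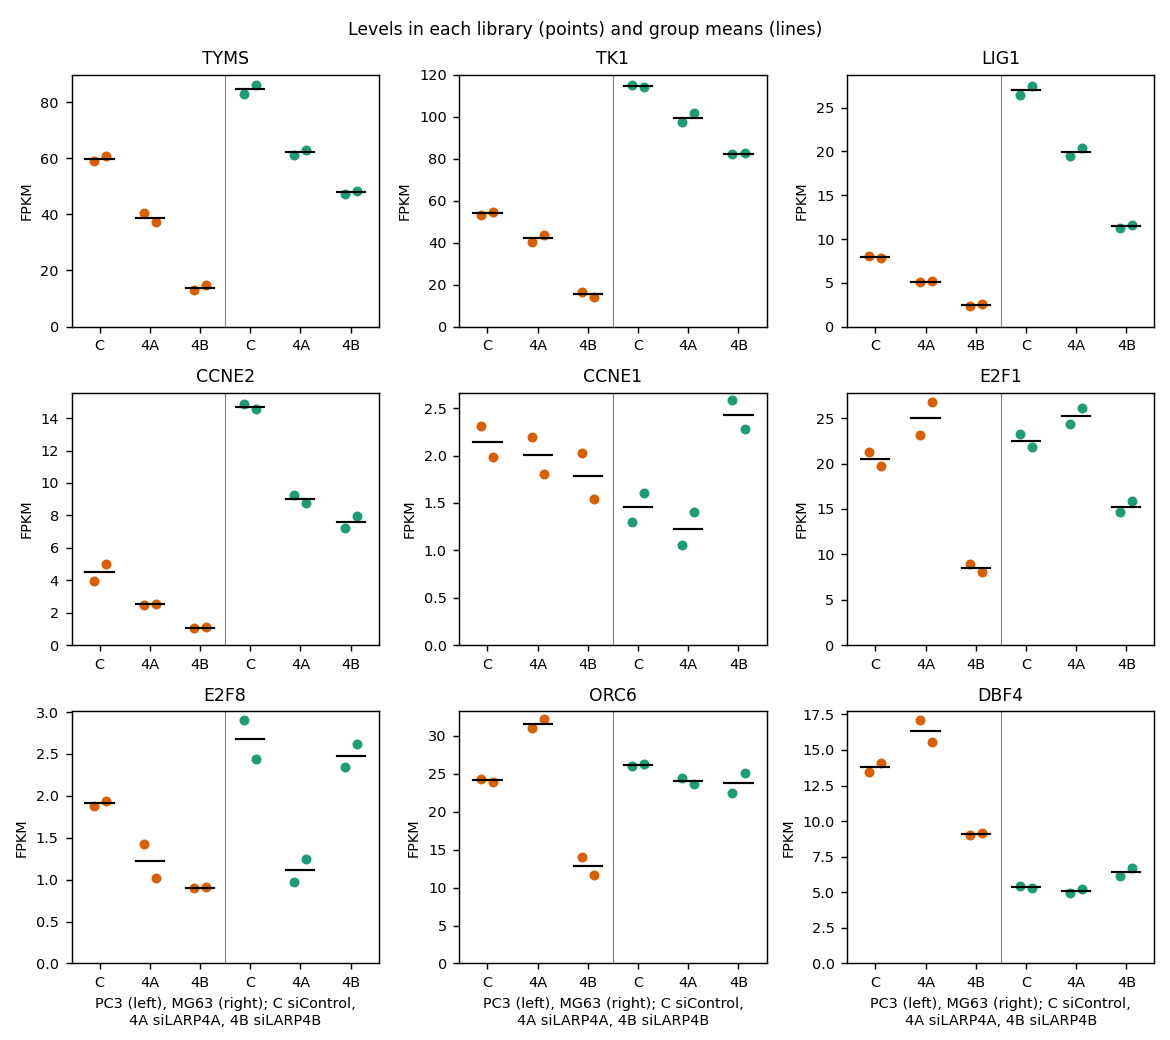
FPKM of 9 members in each library (points, PC3 orange and MG63 green) with group means (lines); C is siControl, 4A siLARP4A and 4B siLARP4B, and each panel has its own axis from 0. TYMS, TK1 and LIG1 step down from C to 4A to 4B in both lines, whereas CCNE1 in MG63 is highest with 4B and ORC6 and DBF4 in PC3 are highest with 4A.

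The 2 cyclin E genes, whose products bind CDK2 to drive S phase entry, moved differently. CCNE2 was at 3.96 and 4.99 with siControl, 2.48 and 2.55 with siLARP4A and 1.03 and 1.13 with siLARP4B FPKM in PC3 and 14.9 and 14.5 with siControl, 9.26 and 8.75 with siLARP4A and 7.24 and 7.97 with siLARP4B in MG63. Its libraries again separated in the order siControl, siLARP4A, siLARP4B in each line. CCNE2 changed by -0.82 (SE 0.12, edgeR adjusted p = 1.2e-05) and -2.06 (SE 0.15, edgeR adjusted p = 2e-10) in PC3 and by -0.71 (SE 0.086, edgeR adjusted p = 2.1e-06) and -0.93 (SE 0.088, edgeR adjusted p = 3.5e-08) in MG63. Exons of INTS8 on the opposite strand lie over 37% of its GENCODE exons. CCNE1, at 36 to 107 fragments per library the most thinly covered member, was at 2.31 and 1.99 with siControl, 2.202 and 1.81 with siLARP4A and 2.03 and 1.54 with siLARP4B FPKM in PC3 and 1.301 and 1.61 with siControl, 1.05 and 1.41 with siLARP4A and 2.59 and 2.28 with siLARP4B in MG63. In PC3 its groups overlapped and it was the only member not called after siLARP4B (-0.26 (SE 0.20, edgeR adjusted p = 0.32)). The MG63 siLARP4B libraries were above the other 4 of the line, a rise of 0.76 (SE 0.20, edgeR adjusted p = 0.0061). That rise was 0.62 without siControl replicate 1 (adjusted p = 0.0771) and 0.66 without siLARP4B replicate 1 (adjusted p = 0.0521).

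Of the E2F factors, E2F1 and E2F2 activate G1/S genes and E2F8 represses them. E2F1 was at 21.3 and 19.7 with siControl, 23.1 and 26.8 with siLARP4A and 8.92 and 8.01 with siLARP4B FPKM in PC3 and 23.3 and 21.8 with siControl, 24.4 and 26.1 with siLARP4A and 14.6 and 15.8 with siLARP4B in MG63. In each line the siLARP4A pair was the highest and the siLARP4B pair the lowest. E2F1 fell after siLARP4B by -1.27 (SE 0.086, edgeR adjusted p = 8.8e-11) in PC3 and -0.55 (SE 0.079, edgeR adjusted p = 1.2e-05) in MG63 on the log2 scale. After siLARP4A it rose in PC3 (0.30 (SE 0.075, edgeR adjusted p = 0.0031), and 0.24 without siControl replicate 2, where the call was lost). In MG63 it did not pass the test (0.16 (SE 0.076, edgeR adjusted p = 0.12)), although it was called higher there under 3 alternatives. E2F2 was at 2.27 and 2.56 with siControl, 1.71 and 1.82 with siLARP4A and 0.643 and 0.954 with siLARP4B in PC3 and 3.16 and 3.498 with siControl, 2.73 and 2.93 with siLARP4A and 2.58 and 3.03 with siLARP4B in MG63. Its 3 PC3 groups were separate, with a fall after siLARP4B of 67.3%, and neither siRNA passed the test in MG63. E2F8 was at 1.88 and 1.94 with siControl, 1.42 and 1.02 with siLARP4A and 0.901 and 0.907 with siLARP4B in PC3 and 2.91 and 2.44 with siControl, 0.973 and 1.25 with siLARP4A and 2.34 and 2.62 with siLARP4B in MG63. It was the member whose lowest log2 fold change was not in PC3 with siLARP4B but in MG63 with siLARP4A, at -1.26 (SE 0.17, edgeR adjusted p = 6.2e-06), while siLARP4B in MG63 gave -0.09 (SE 0.14, edgeR adjusted p = 0.68).

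CLSPN, the adaptor through which ATR activates CHEK1, was at 4.396 and 4.49 with siControl, 5.24 and 4.83 with siLARP4A and 1.66 and 1.44 with siLARP4B FPKM in PC3 and 5.58 and 5.802 with siControl, 5.07 and 5.71 with siLARP4A and 4.41 and 5.01 with siLARP4B in MG63. In PC3 the siLARP4A libraries lay above siControl (0.20 (SE 0.079, edgeR adjusted p = 0.050), not past the threshold; 0.26 with adjusted p = 0.0197 without siLARP4A replicate 2) and the siLARP4B libraries far below (-1.52 (SE 0.095, edgeR adjusted p = 2.4e-11)). CHAF1B, a subunit of the chromatin assembly factor that places histones on new DNA, was at 5.47 and 5.702 with siControl, 4.295 and 4.49 with siLARP4A and 2.78 and 2.72 with siLARP4B in PC3 and 10.6 and 10.4 with siControl, 8.21 and 7.8996 with siLARP4A and 8.33 and 8.72 with siLARP4B in MG63. Every siRNA library was below the siControl libraries, and CHAF1B fell in all 4 comparisons, by 20.6% and 50.9% in PC3 and by 23.1% and 17.6% in MG63. Its partner CHAF1A fell by 42.03% after siLARP4B in PC3 and by 20.9% after siLARP4A in MG63, and did not pass the test in the other 2. UHRF1, which brings DNA methyltransferase to replicated DNA, fell most after siLARP4B in PC3 (by 47.95%) and after siLARP4A in MG63 (by 31.4%). SLBP, which binds the stem-loop of histone mRNAs, had the smallest fall of the called members in PC3 after siLARP4B, 24.6%.

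The 2 siRNAs were compared directly within each line. In PC3, 45 of the 46 members were higher with siLARP4A than with siLARP4B and 0 were lower (0 also at an unadjusted edgeR p under 0.05 and with DESeq2), where 26.3% of all genes tested were higher and 27.8% lower. The median difference of the members was 0.93 on the log2 scale, and 22 were higher at least 2-fold. Over all 15685 genes tested, 640 were higher and 748 lower at least 2-fold. CLSPN (1.72 (SE 0.093, edgeR adjusted p = 1e-12)), MCM10 (1.68 (SE 0.12, edgeR adjusted p = 9.8e-11)) and E2F1 (1.58 (SE 0.084, edgeR adjusted p = 9.4e-13)) differed most, and CCNE1 was not called (0.19 (SE 0.20, edgeR adjusted p = 0.44)). In MG63 the difference was small and mixed: 19 members were lower with siLARP4A and 6 higher, with a median of -0.14, where 22.2% of all genes were lower and 21.5% higher. The 6 higher with siLARP4A than with siLARP4B in MG63 were LIG1 (0.78), E2F1 (0.71), MCM3 (0.36), TYMS (0.36), TK1 (0.26) and POLA2 (0.18, adjusted p = 0.050). Those lower included E2F8 (-1.17), CCNE1 (-0.995) and ORC1 (-0.50). Without MG63 siLARP4B replicate 2, the number higher was 10.

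Whether an siRNA acted differently in the 2 lines was tested as an interaction, the log2 fold change in PC3 minus that in MG63. For siLARP4B all 46 members were lower in PC3 by this test, 14 of them by at least 1 on the log2 scale, with a median of -0.79. Over all 15685 genes tested, 14.4% were lower and 12.4% higher, with 199 lower and 491 higher by at least 1. The largest differences were those of E2F2 (-1.38 (SE 0.20, edgeR adjusted p = 1.9e-05)), TK1 (-1.35 (SE 0.090, edgeR adjusted p = 1.1e-09)) and RRM2 (-1.32 (SE 0.079, edgeR adjusted p = 3.6e-10)), and the smallest was that of POLE (-0.25 (SE 0.085, edgeR adjusted p = 0.031)). LIG1, the member with the largest fall in MG63, differed by -0.45 (SE 0.10, edgeR adjusted p = 0.0024). The calls of 43 of the 46 held under all the alternatives run. That of POLE was lost in 5 of 16 (edgeR or limma adjusted p of 0.0599 to 0.126), 4 of them leaving out PC3 siControl replicate 1 or 2, PC3 siLARP4B replicate 1 or MG63 siLARP4B replicate 2, that of LIG1 with limma (adjusted p = 0.0828), and that of CCNE1 without PC3 siLARP4B replicate 2 (edgeR adjusted p = 0.0604). The knockdown itself was also larger in PC3, where LARP4B changed by -2.44 against -1.70 in MG63. LARP4, which siLARP4B does not target, differed too. With siLARP4B it was at 10.6 and 11.5 FPKM in MG63, a rise of 0.43 past the threshold. In PC3 it was at 18.8 and 18.96, a change of -0.03 not past it. The part that either plays in the difference between the lines was not tested. For siLARP4A 14 members were higher in PC3 and 0 lower (median 0.14), against 5.75% and 5.46% of all genes. At an unadjusted edgeR p under 0.05, PCNA and RRM2 were the 2 members lower in PC3, and DESeq2 called 0. LARP4 changed by -2.98 in PC3 and -1.96 in MG63. GINS4 (0.69 (SE 0.11, edgeR adjusted p = 0.00018)), MCM10 (0.63 (SE 0.13, edgeR adjusted p = 0.0019)), RFC5 (0.61 (SE 0.13, edgeR adjusted p = 0.0044)) and ORC6 (0.52 (SE 0.11, edgeR adjusted p = 0.0024)) led these 14. ORC6, GINS4, MCM10 and CHAF1A kept the call under all 16 alternatives, whereas DBF4 lost it in 15, CDC6 in 14, RRM1 in 10, ORC1 in 9, MCM2 in 8, POLE in 7, MCM4 in 6, FEN1 and UHRF1 in 3 each and RFC5 in 2. The number called higher was 4 without MG63 siLARP4A replicate 1, 5 without either MG63 siControl replicate, and 8 without PC3 siControl replicate 2 or MG63 siLARP4A replicate 2.

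**Figure D4:**
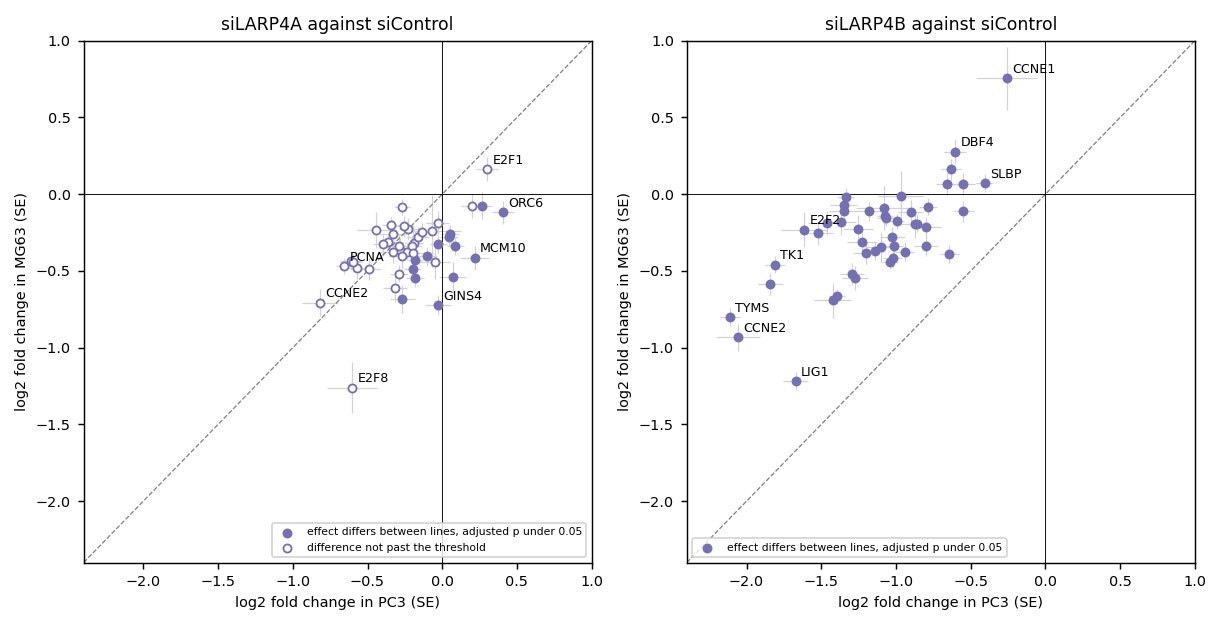
Log2 fold change against siControl in PC3 (x) and MG63 (y) for each member, with standard errors; the dashed line marks equal change and filled points have a difference between lines past an edgeR adjusted p of 0.05. For siLARP4B all 46 points lie above the dashed line and are filled, from CCNE1 at the top to TYMS, CCNE2 and LIG1 at the lower left; for siLARP4A the points lie near it and 14 are filled.

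The lines share no library, so their calls can be set side by side. For siLARP4A, 26 members fell in both lines, 92.9% of the 28 that fell in PC3 and 70.3% of the 37 in MG63. With 28 and 37 of the 46 members lower, at least 19 had to be shared. Over all genes tested, 7.34% fell in both, 43.4% of those that fell in PC3 and 54.3% of those in MG63. For siLARP4B, 26 fell in both, 57.8% of the 45 in PC3 and all 26 in MG63; since 45 of the 46 fell in PC3, at least 25 of those 26 had to be shared. Of all genes tested, 8.58% fell in both, 41.1% of those that fell in PC3 and 50.7% of those in MG63. Calls that also remained in both lines without any 1 library numbered 10 for siLARP4A (MCM3, MCM5, MCM7, CDC45, PCNA, RFC3, LIG1, TYMS, CCNE2 and CHAF1B) and 19 for siLARP4B. Across the 46 members the log2 fold changes of the lines had a Pearson r of 0.517 and a Spearman rho of 0.396 for siLARP4A, and 0.721 and 0.603 for siLARP4B; genes are not independent, and these values only describe the spread of points.

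With siControl alone, most members were less abundant in PC3 than in MG63: 31 were lower and 5 higher, with a median of -0.48 on the log2 scale, where 40.7% of all genes were lower and 41.3% higher in PC3. The largest differences were those of MCM3 (-3.22 (SE 0.051, edgeR adjusted p = 1.3e-23)), GINS4 (-2.25 (SE 0.075, edgeR adjusted p = 1e-17)) and LIG1 (-1.96 (SE 0.062, edgeR adjusted p = 4.3e-18)). Of the other ring subunits, MCM2, MCM4, MCM5 and MCM6 were lower in PC3 too, at -1.91, -1.72, -1.54 and -1.38, whereas MCM7 was higher (0.23 (SE 0.049, edgeR adjusted p = 0.00021)). Per length, the most abundant ring subunit with siControl was thus MCM7 in PC3, at 131 and 134 FPKM, and MCM3 in MG63, at 419 and 424; MCM6 was the least abundant in both, at 19.2 and 18.8 and 42.6 and 44.3. DBF4 was the member that stood highest in PC3 relative to MG63 (1.18 (SE 0.076, edgeR adjusted p = 2.3e-12)), followed by POLE2 (0.73 (SE 0.15, edgeR adjusted p = 0.00014)). CCNE2 was lower in PC3 (-1.90 (SE 0.095, edgeR adjusted p = 2e-14)), and in MG63 it exceeded CCNE1 per length, at 14.9 and 14.5 against 1.301 and 1.61 FPKM. PCNA, RFC2, RFC5 and POLD1 did not differ past the threshold, with values from -0.09 to 0.05.

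A list of 60 further replication and G1/S genes and another of 20 G2/M genes were read from the same fit. Both were also chosen with earlier results of these data known. Of all genes tested, 16.9% fell and 19.5% rose after siLARP4A in PC3, and 20.9% and 24.8% after siLARP4B there. In MG63 these shares were 13.5% and 13.3% after siLARP4A, and 16.9% and 18.0% after siLARP4B. After siLARP4B in PC3, 44 of the 60 fell and 4 rose (median -0.48), led by HELLS (-1.39 (SE 0.12, edgeR adjusted p = 4.7e-09)), a chromatin remodeller, CHEK1 (-1.25 (SE 0.081, edgeR adjusted p = 4.4e-11)), the checkpoint kinase downstream of CLSPN, and ASF1B (-1.24 (SE 0.066, edgeR adjusted p = 1.4e-12)), a histone chaperone. All 20 G2/M genes fell there too, with a median of -1.19, from -1.65 (NCAPG, a condensin subunit) to -0.80 (AURKA, a mitotic kinase), so the lower levels in PC3 were not limited to S phase genes. In the other 3 comparisons the G2/M genes were called less often than the members, a difference not itself tested. In PC3, siLARP4A lowered 3 (15%) and raised 2. In MG63 it lowered 8 (40%) and raised 0 (0 also at an unadjusted edgeR p under 0.05 and with DESeq2). After siLARP4B in MG63, 3 fell (15%) and 2 rose. Both shares of 15% were close to the share of all genes that fell. Without PC3 siLARP4A replicate 1 the first count of lower G2/M genes was 6, and without MG63 siLARP4B replicate 2 the last was 7. Of the 60 pathway genes, siLARP4A lowered 16 and raised 10 in PC3 and lowered 28 and raised 5 in MG63, and siLARP4B lowered 23 and raised 7 in MG63; the last count of lower genes was 15 without MG63 siControl replicate 2 or siLARP4B replicate 1.

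UNG, which removes uracil from DNA, led the pathway list after siLARP4A in both lines. It was at 51.5 and 54.7 with siControl, 17.9 and 17.2 with siLARP4A and 25.1 and 23.3 with siLARP4B FPKM in PC3 and 57.9 and 59.03 with siControl, 23.6 and 24.9 with siLARP4A and 34.9 and 33.96 with siLARP4B in MG63. Every siRNA library lay below siControl, and the siLARP4A pair was the lowest of each line, with log2 fold changes of -1.58 (SE 0.060, edgeR adjusted p = 1.9e-14) and -1.27 (SE 0.059, edgeR adjusted p = 1.4e-12). SAMHD1, which breaks down deoxynucleotides, rose after siLARP4B in MG63, where it was at 4.28 and 3.898 with siControl, 5.798 and 5.28 with siLARP4A and 10.3 and 11.3 with siLARP4B. The siLARP4B pair was above the other 4 libraries (1.42 (SE 0.083, edgeR adjusted p = 2.9e-11)). The other genes named by the same rule were DTYMK (-0.72), a thymidylate kinase, and CDC25A (0.79), the phosphatase that activates CDK2, after siLARP4A in PC3, CHTF18 (-0.72), an alternative clamp loader subunit, and the repressor E2F7 (0.60) after siLARP4A in MG63, and E2F5 (0.71) after siLARP4B in MG63.

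**Figure D5:**
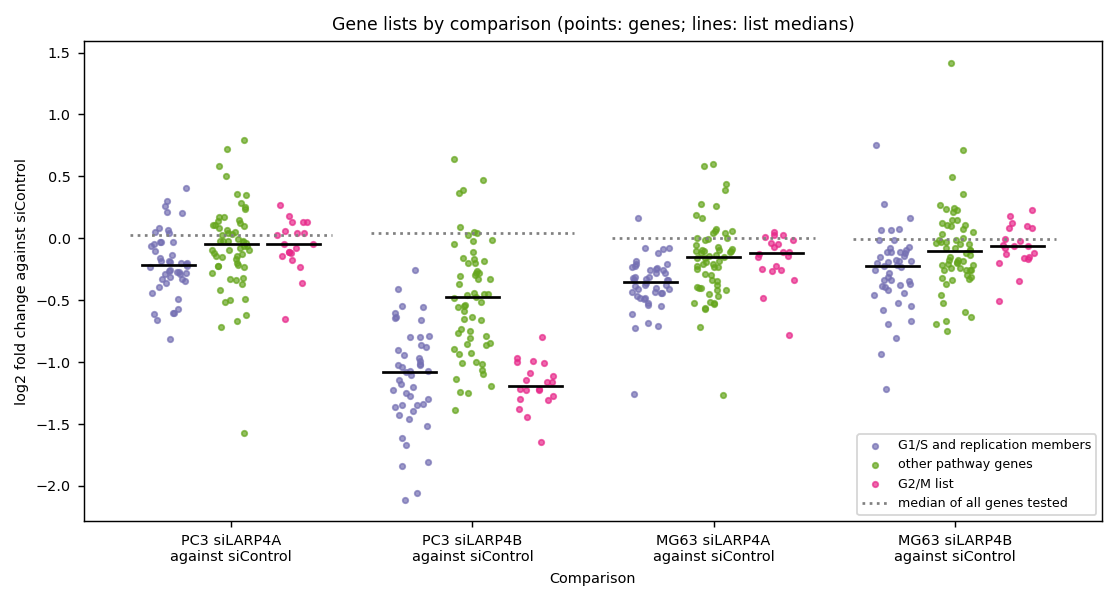
Log2 fold change against siControl of each gene (points) of the 46 members, the 60 further pathway genes and the 20 G2/M genes in the 4 comparisons; bars are list medians and dotted lines the median of all genes tested. For PC3 siLARP4B the members and the G2/M genes centre at -1.08 and -1.19, below the pathway genes at -0.48, and for the other comparisons all list medians lie between -0.35 and -0.05.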

How the data were processed

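Poly(A) RNA of PC3 and MG63 cells was sequenced in 12 libraries, with 16950119 to 24864977 fragments each. The authors deposited 1 table per library with a fragment count, a depth-scaled fragment signal (FPM) and an FPKM value for each of 86394 transcript models. Per the submitters' processing notes, HISAT2, featureCounts, edgeR and FastQC were used with hg38, without versions; strand handling is not given in the sources used here. In the deposited tables, FPKM equals FPM per kilobase of model length, which was checked on the values. A fragment can count in several models of a gene, so each gene was read from its single model of highest summed count. Genes outside chromosomes 1 to 22, X and Y, and 1810 symbols with several loci, were left out, leaving 26468. A further per-sample column in each of 3 files was not used.

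The test was edgeR 4.0.16 under R 4.3.3, on counts (TMM scaling, filterByExpr, quasi-likelihood F-test, two-sided) in 1 fit of 12 libraries with a mean per group. The 15685 genes tested were adjusted together by Benjamini-Hochberg in each of 9 comparisons at a threshold of 0.05. The biological coefficient of variation was 4.22%. The scripts were tested on simulated data. The named members are the 2 of each role with the largest log2 fold change against siControl, and those called in both directions; genes outside this rule that are named individually were chosen after their values were seen. Of the further pathway genes, the 3 with the largest called change in each comparison are named. The members and lists were chosen with earlier results of these data known. Alternatives were size factors (RLE), DESeq2 1.42.0, no filter, a mean FPKM of at least 5, limma 3.58.1 on log2(FPKM + 1), the replicate number as a block, libraries of 1 line only, the longest model, a deduplicated table of 1 PC3 siControl library, and leaving out each library. Replicate numbers were not used as pairs in the main fit. The deviations of same-numbered libraries from their group means had correlations of -0.027 to 0.050. With 1 deviation per group and genes of all levels weighted alike, these values cannot settle whether the libraries were paired.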

Additional observations from a re-analysis of the deposited data

Results flagged for a closer look

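For the members below, the log2 fold change of an siRNA against siControl differed between the lines by the interaction test (PC3 minus MG63, edgeR adjusted p under 0.05). For siLARP4B these were all 46, although the calls of POLE, LIG1 and CCNE1 were each lost under at least 1 alternative. The origin licensing genes differed by -1.18 (ORC1), -0.79 (ORC6), -1.07 (CDC6) and -1.28 (CDT1). In the helicase, MCM2 to MCM7 differed by -0.60, -0.73, -0.91, -0.68, -0.67 and -0.82, CDC45 by -0.82, GINS1 to GINS4 by -0.68, -1.24, -0.58 and -0.91, and MCM10 by -1.28. CDC7 differed by -0.73 and DBF4 by -0.88. The clamp PCNA differed by -0.93, and RFC2 to RFC5 by -0.73, -1.26, -0.46 and -0.76. Of the polymerase genes, POLA1 differed by -0.79, POLA2 by -0.78, PRIM1 by -1.03, POLD1 by -0.44, POLD3 by -0.62, POLE by -0.25 and POLE2 by -0.96. FEN1 differed by -0.60 and LIG1 by -0.45. The deoxynucleotide genes RRM1, RRM2, TYMS and TK1 differed by -0.77, -1.32, -1.31 and -1.35. Among the G1/S control genes, CCNE1 differed by -1.02, CCNE2 by -1.13, E2F1 by -0.73, E2F2 by -1.38 and E2F8 by -0.99. CLSPN differed by -1.26, SLBP by -0.48, CHAF1A by -0.71, CHAF1B by -0.75 and UHRF1 by -0.57.

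For siLARP4A the 14 members with a difference were all higher in PC3. They were ORC1 (0.42), ORC6 (0.52), CDC6 (0.30), MCM2 (0.25), MCM4 (0.29), GINS4 (0.69), MCM10 (0.63), DBF4 (0.34), RFC5 (0.61), POLE (0.31), FEN1 (0.32), RRM1 (0.30), CHAF1A (0.42) and UHRF1 (0.36). Of these, ORC6, GINS4, MCM10 and CHAF1A kept the call under all 16 alternatives, and the other 10 lost it under 2 (RFC5) to 15 (DBF4) of them. ORC6 and DBF4 rose in PC3 against siControl and did not pass the test in MG63.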

How the results depend on the processing

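Alternatives that kept all libraries gave 1612 values for the 46 members and 2 targets against siControl. Of these, 1579 stayed on the same side of the threshold, 12 were no longer past it and 21 passed it newly. A reversed direction with a call in either setting was seen in 0. Changes of sign between values not past the threshold were counted as the same. The median of the members after siLARP4B in PC3 was -1.12 with no expression filter, -1.12 with libraries of 1 line only, -1.12 with the deduplicated table and -0.98 with limma on log2(FPKM + 1), which understates changes of low genes. For siLARP4A against siLARP4B in PC3 it was 0.98 at a mean FPKM of at least 5, where fewer genes are tested, and 0.80 with limma. In MG63 it was -0.065 at that FPKM. CCNE1, E2F2, E2F8, POLE2 and CLSPN lie below that mean FPKM, so all values there leave these members out. E2F1 was the 1 member called higher after siLARP4A in MG63 with no filter, at a mean FPKM of at least 5 and with 1 line only. After siLARP4B in MG63, 1 member was called higher at that FPKM. Lower G2/M genes after siLARP4B in MG63 numbered 5 with no filter, at that FPKM and with 1 line only. All genes lower there numbered 2489 of 22751, 2055 of 8417 and 2841 of 14296, against 2653 of 15685 in the main fit. Members higher with siLARP4A than with siLARP4B in MG63 numbered 10 at that FPKM and with 1 line only. All genes higher there numbered 2464 of 8417 and 3582 of 14296, against 3380 of 15685 in the main fit.

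For the siLARP4A difference between lines, 9 members were higher with DESeq2, 8 with limma and 7 with the deduplicated table. Among all genes 536, 900 and 529 were higher there, against 902 in the main fit. With no filter 2 members were lower, and 2 at a mean FPKM of at least 5. All genes lower there numbered 1281 of 22751 and 962 of 8417, against 857 of 15685 in the main fit. The median of the members was 0.089 with no filter, 0.096 at that FPKM and 0.085 with the deduplicated table. For siLARP4B the median difference was -0.86 with no filter, -0.75 at that FPKM, -0.67 with limma and -0.83 with the deduplicated table. For PC3 against MG63 with siControl, limma called 9 members higher with a median of -0.27, no filter gave -0.44, and RRM2 reversed to 0.048 with limma. Among all genes limma called 7369 higher and 5396 lower, against 6482 and 6381 in the main fit. The causes were not tested.

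Same-numbered libraries of a line correlated at -0.027 to 0.050 in their deviations from the group means, over all genes tested. With 1 deviation per group and genes of all levels weighted alike, these values cannot settle whether such libraries shared a culture or batch. With the replicate number as a block, 28, 45, 36 and 26 members were lower in the 4 comparisons with siControl (PC3 siLARP4A, PC3 siLARP4B, MG63 siLARP4A, MG63 siLARP4B). Lower genes among all 15685 tested numbered 2589, 3209, 2033 and 2589, against 2655, 3271, 2123 and 2653 without the block. The median of the members for PC3 against MG63 with siControl was -0.43 with the block.

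Leaving out 1 library at a time gave 19 to 24 lower members for PC3 siLARP4A, 45 in each case for PC3 siLARP4B, 30 to 34 for MG63 siLARP4A, and 19 to 26 for MG63 siLARP4B with 1 higher in each case and a median of -0.27 to -0.17. Lower G2/M genes ranged from 2 to 6 for PC3 siLARP4A and from 2 to 7 for MG63 siLARP4B, and lower pathway genes in the latter from 15 to 22. The median of siLARP4A against siLARP4B ranged from 0.91 to 0.98 in PC3 and from -0.17 to -0.074 in MG63, where 5 to 10 members were higher. The difference between lines for siLARP4A had 4 to 16 members higher and 0 to 1 lower with a median of 0.055 to 0.18, and that for siLARP4B a median of -0.91 to -0.80. With 2 libraries per group, the lone library left is assumed to vary like the other groups. Fewer of all genes tested were also called lower against siControl when a library was left out. The ranges of the members' counts therefore include a change that is not particular to the members. Members with few fragments, such as CCNE1 and E2F8, have the widest errors.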
